A study of Arabidopsis thaliana with 25 samples.

Results

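The 10 nuclear genes that encode the polymerase-associated proteins PAP1 to PAP10 of the plastid were followed in seed leaves (cotyledons) of the thale cress, Arabidopsis thaliana. They were chosen by their gene identifiers and not by any measured value, and all 10 were among the 20615 genes tested. Wild-type plants spent 5 days on Murashige and Skoog medium, either in darkness (D) or in long days (L). Dark-grown seedlings then received 1, 6 or 24 h of continuous light (1h, 6h and 24h). Each group held 5 RNA-seq libraries of dissected, acetone-fixed cotyledons, and Drosophila cells had been added to each before extraction as an outside measure of the amount of plant RNA. No dark group was kept for the added hours, so light cannot be told apart from age or time of day, and L also differs from 24h in age and in day length. The labels number biological replicates 1 to 5 without growth dates, so a p-value here covers only their spread, which may be partly technical.

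Plastid genes are read by a bacterial-type polymerase, PEP, whose core subunits are encoded by the plastid's own rpo genes, and by phage-type polymerases of nuclear origin. Nuclear-encoded sigma factors lead PEP to its promoters, and in chloroplasts a set of further nuclear-encoded proteins, the PAPs, is bound to the core. Seedlings that lack a PAP are typically albino or pale, and the complex is known for reading the photosynthesis genes of the plastid as cotyledons green. PAP1 (PTAC3), PAP2 (PTAC2) and PAP3 (PTAC10) carry a SAP domain, pentatricopeptide repeats and an S1 domain, in that order, which are nucleic-acid-binding folds. PAP4 (FSD3) and PAP9 (FSD2) are iron superoxide dismutases. PAP5 (PTAC12, also HEMERA) and PAP8 (PTAC6) are found in both plastid and nucleus, and PAP5 takes part in phytochrome signalling. PAP6 (FLN1) is a fructokinase-like protein, PAP10 is thioredoxin z, which binds it, and PAP7 (PTAC14) has a SET domain.

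The sequences just upstream of the genes were searched because several light-response factors of plants are known to bind the G-box, CACGTG. The windows are the 250 bases before each annotated start in RefSeq's TAIR10.1 annotation, searched on both strands. The G-box was in 2 of the 10 members, PAP1 and PAP2, and in 6.49% of the 27443 promoters of the same length. The telo-box, AAACCCT, was in PAP4 and PAP10, with 2 matches each, and in 7.33% of promoters. The 4-letter core ACGT, which the G-box contains, was in PAP1, PAP2, PAP3 and PAP4 and in 44.1% of promoters. The motif GATAAG was in none of the 10 windows and in 12.3% of promoters. The same held for CCAATC, found in 10.2%, and for TGGGCC, found in 13.7%. A match is a description of letters and not a binding site. The 4 windows with a G-box or a telo-box follow, read 5′ to 3′ on each gene's strand, with the motif, or its reverse complement, in capitals. That of PAP1 is chr3:1127582-1127831 on the minus strand, with the G-box 48 to 43 bases before the start, and that of PAP2 is chr1:28122578-28122827 on the minus strand, with it 10 to 5 bases before. Those of PAP4 and PAP10 are chr5:7850194-7850443 and chr3:2123905-2124154, both on the plus strand.
PAP1: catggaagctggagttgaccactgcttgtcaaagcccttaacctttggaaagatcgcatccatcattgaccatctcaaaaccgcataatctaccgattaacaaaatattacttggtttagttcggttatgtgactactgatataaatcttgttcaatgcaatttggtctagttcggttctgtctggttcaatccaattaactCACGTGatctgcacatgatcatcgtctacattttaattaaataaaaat
PAP2: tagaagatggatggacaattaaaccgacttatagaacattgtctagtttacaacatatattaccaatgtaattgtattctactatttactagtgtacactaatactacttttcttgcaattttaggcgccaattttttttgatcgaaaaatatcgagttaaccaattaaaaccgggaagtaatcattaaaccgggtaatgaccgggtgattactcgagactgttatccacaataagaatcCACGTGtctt
PAP4: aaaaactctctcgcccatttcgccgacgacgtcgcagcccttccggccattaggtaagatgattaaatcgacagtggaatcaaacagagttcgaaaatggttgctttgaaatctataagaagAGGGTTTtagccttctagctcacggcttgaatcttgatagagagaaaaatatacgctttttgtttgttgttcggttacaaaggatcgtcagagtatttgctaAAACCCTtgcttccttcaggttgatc
PAP10: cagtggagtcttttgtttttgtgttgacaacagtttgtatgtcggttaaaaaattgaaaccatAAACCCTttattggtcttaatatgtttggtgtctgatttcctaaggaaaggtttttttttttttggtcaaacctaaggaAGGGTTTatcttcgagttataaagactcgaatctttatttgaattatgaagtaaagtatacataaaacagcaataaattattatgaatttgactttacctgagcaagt

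The genes lie on all 5 nuclear chromosomes. PAP1 (AT3G04260) spans chr3:1122948-1127581 with 13 exons, PAP2 (AT1G74850) chr1:28118664-28122577 with 4, PAP3 (AT3G48500) chr3:17962080-17965723 with 12 and PAP4 (AT5G23310) chr5:7850444-7852534 with 8. PAP5 (AT2G34640) spans chr2:14581835-14584797 with 10 exons, PAP6 (AT3G54090) chr3:20028052-20030055 with 2, PAP7 (AT4G20130) chr4:10878817-10882052 with 12 and PAP8 (AT1G21600) chr1:7570845-7573847 with 6. PAP9 (AT5G51100) spans chr5:20773235-20775739 with 8 exons and PAP10 (AT3G06730) chr3:2124155-2126156 with 4. Ends of PAP5, PAP8 and PAP10 overlap a neighbour by 22, 18 and 12 bases, and reads in those few bases cannot be assigned. The neighbour of PAP10 lies on the same strand. Those of PAP5 and PAP8 lie on the other strand, and whether the authors counted by strand was not stated. No member shares an entry of the table with another gene. The coding sequences of the dismutases PAP4 and PAP9 were identical at 61.5% of 779 aligned bases, and PAP9 was 71.2% identical to FSD1, the iron dismutase outside the complex.

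Libraries held 17901840 to 24085995 counts, and each member had at least 100 counts in every library. Drosophila genes took on average 2.2% of a library's counts in D, 1.99% at 1h, 1.13% at 6h, 0.610% at 24h, with 0.257% in L. Single libraries ran from 1.21% to 4.03% in D, 1.015% to 3.04% at 1h and 0.739% to 1.99% at 6h. They ran from 0.352% to 0.939% at 24h and from 0.184% to 0.429% in L, so each group overlapped the next. Levels are spike-scaled CPM, which are counts scaled to a library size set by the Drosophila counts, and, beside them, CPM under TMM scaling over Arabidopsis genes, which sets libraries by their typical Arabidopsis gene. Between these scales the median of all genes shifted by 0.57 (log2) at 6h, by 1.25 at 24h and by 2.43 in L, each against D, so spike-scaled values track amounts per unit of fly RNA and TMM-scaled values track changes relative to the typical gene. Fewer cells of a type and less RNA per cell cannot be told apart in these bulk samples. All 3 mesophyll markers were found in every group, with a summed level of 124953 to 267719 spike-scaled CPM in L and 2262 to 13462 in D. The summed level of 5 root markers was 0.687 to 6.08 in L and at most 0.0524 in D, where WOX5 and COBL9 were at 0, with WOX5 at 0 also in L, and that of 4 shoot meristem markers was 1.21 to 7.65 in L and 2.38 to 12.0 in D, with CLV3 at 0 in L and WUS at 0 at 24h. The summed level of 3 stomatal lineage markers, SPCH, MUTE and FAMA, was 1.93 to 11.7 in D, 3.97 to 20.2 at 1h, 12.9 to 37.3 at 6h, 25.8 to 70.0 at 24h and 47.2 to 103 in L. All 3, and all 3 mesophyll markers, were called higher at 24h and in L, each against D, on both scales. Of all genes 50.3% and 84.9% were with spike scaling, and 26.2% and 26.9% with TMM scaling. Of the meristem markers STM was called lower at 24h, and STM and CLV3 in L, on both scales, with KNAT1 added under TMM scaling. Lower were 3.76% and 1.96% of all genes with spike scaling, and 28.9% and 30.4% with TMM scaling. The part of cell type in the results was not tested. Libraries of replicates 1 and 2 stood apart: plastid genes took a median of 2.12% of their counts (0.549% to 4.09%, 10 libraries), against 7.76% in replicates 3 to 5 (3.83% to 16.003%, 15 libraries). In D, Drosophila genes took 4.03% and 2.85% of counts in replicates 1 and 2, and 1.21% to 1.54% in replicates 3 to 5. At 1h the sets overlapped, with 3.04% and 1.015% against 1.31% to 2.37%. The part of the Drosophila share in the results of each set was not tested. Both sets hold every group, and values within each are given beside the counts of calls.

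Summed over the 10 genes, spike-scaled CPM had a mean of 229 ± 164 for D, 241 ± 152 for 1h, 524 ± 207 for 6h, 726 ± 295 for 24h and 703 ± 326 for L (SD, n = 5 each, as for every level). Under TMM scaling the sum averaged 348 ± 98.0 in D, 370 ± 87.3 at 1h, 588 ± 46.0 at 6h, 506 ± 114 at 24h, with 221 ± 77.4 in L. The mean total per unit of fly RNA was highest at 24h and nearly as high in L, whereas relative to the typical gene it was highest at 6h and lowest in L.

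**Figure D1:**
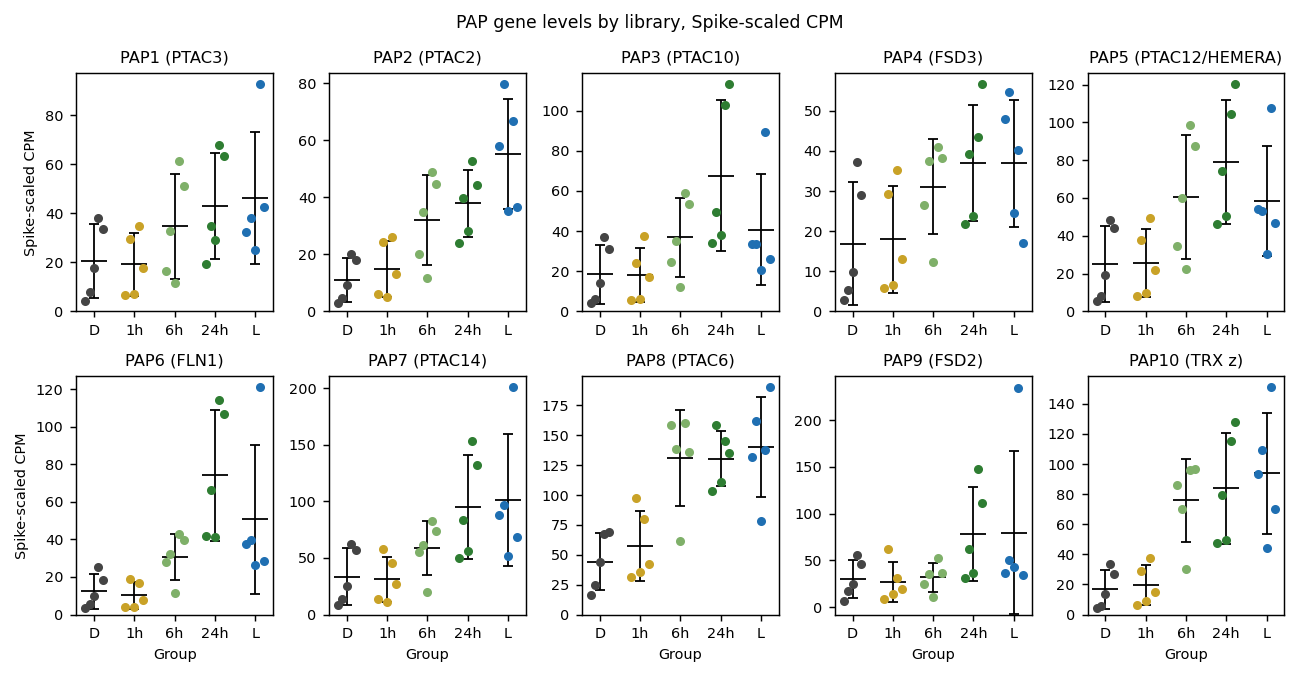
Spike-scaled CPM (vertical axis, linear, a scale for each gene) of PAP1 to PAP10 in the groups D, 1h, 6h, 24h and L. Points are libraries in replicate order, the long dash is the mean and bars are ± SD (n = 5). L replicate 4 stands high for PAP9, at 235, where the other L libraries lie between 34.3 and 50.7.

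**Figure D2:**
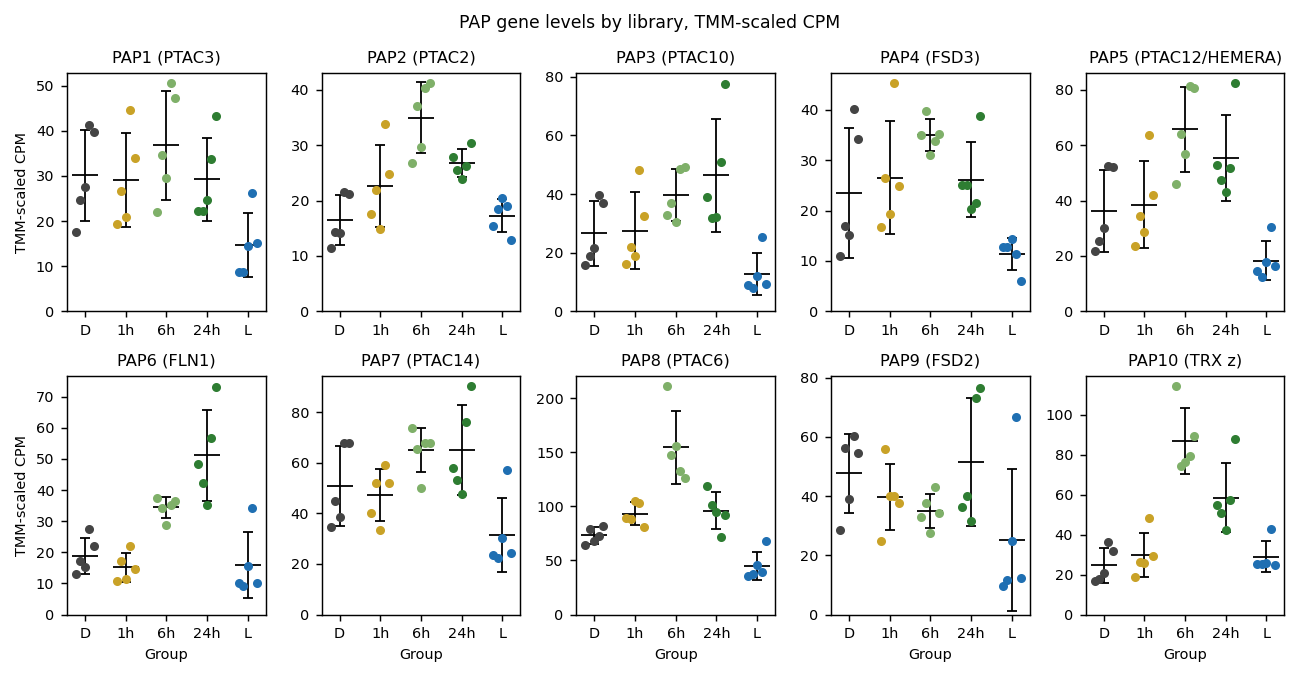
The same genes and libraries in TMM-scaled CPM, which are relative to the typical Arabidopsis gene. PAP10 averages 86.7 at 6h and PAP8 averages 154 at 6h, and both lie lower at 24h and lower again in L.

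After 1 h of light no member passed the test. Of all genes 3.06% were called higher and 0.994% lower at an adjusted p under 0.05 (edgeR's quasi-likelihood test, Benjamini-Hochberg over all 20615 genes, as for every adjusted p below), but 0 members were by edgeR, also at an unadjusted p under 0.05, and 0 by DESeq2. DESeq2 on the Drosophila scale called 3.99% of all genes higher and 1.42% lower. The spike-scaled log2 fold changes lay between -0.28 (PAP6) and 0.46 (PAP2), with a median within 0.01 of 0 beside 0.03 for all genes. Under TMM scaling 0 members were called by edgeR, where 8.3% of genes were called higher and 5.88% lower, and 1, PAP2, had an unadjusted p under 0.05. Within replicates 1 and 2 alone all 10 values were above 1, from 1.3998 to 2.11, beside a median of 1.32 for all genes. Within replicates 3 to 5 all 10 were below 0, from -0.98 to -0.09, beside a median of -0.58. The first set gave 1 call, PAP4 (2.11, adjusted p = 0.04996 by edgeR), beside 8.46% of genes. In it 9 members, all but PAP6, were higher at an unadjusted p under 0.05, and 0 were in replicates 3 to 5. Shares of all genes at that threshold are not given here. The same sets under TMM scaling gave 0 calls, with 2 and 0 members at an unadjusted p under 0.05.

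At 6 h PAP2, PAP8 and PAP10 rose against D, 3 of 10 members, where 21.4% of all genes were called higher. The 10 log2 fold changes had a median of 1.14, above the 0.56 of all genes, and only that of PAP9 (0.08) lay below that median. With the replicate number as a block, PAP3, PAP5 and PAP6 also passed, for 6 of 10 members beside 28.2% of all genes. The block was used since same-numbered libraries of these groups deviated together, though those of unlike number were not compared. Relative to the typical gene (TMM scaling) PAP2, PAP5, PAP6, PAP8 and PAP10 rose, 5 of 10 beside 26.5% of genes, and the block added PAP3 there, beside 29.7%, so the calls had the same direction on both scales. The calls of PAP8 and PAP10 held without each of the 25 libraries in turn. That of PAP2 (1.56) was lost without D replicate 1 (1.32), 2 (1.36) or 3 (1.505) and without 6h replicate 4 (1.36) or 5 (1.41). PAP5 passed without 6h replicate 3 (1.49) or D replicate 4 (1.66) or 5 (1.58), and PAP6 without 6h replicate 3 (1.52) or D replicate 4 (1.74). Within replicates 1 and 2, 9 members passed (median 2.81) beside 41.1% of genes. Within replicates 3 to 5, 0 did by edgeR (median 0.70, with PAP10 at an unadjusted p under 0.05) beside 8.43%. Under TMM scaling these sets gave 8 and 3 calls, beside 23.8% and 20.3%. All TMM calls at 6h held without each library, except PAP5 and PAP6 without D replicate 1 (0.72 and 0.76) and PAP5 without D replicate 2 (0.75), and PAP4 (0.57) passed without D replicate 4 (0.86).

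By 24 h 7 members had risen against D, PAP2, PAP3, PAP5, PAP6, PAP7, PAP8 and PAP10, where 50.3% of all genes were called higher. The median was 1.61 beside 1.19 for all genes. With spike scaling every member was higher at 24h in 5 of 5 pairs of like replicate number, which was not counted for all genes. With TMM scaling PAP1 was higher in 2 and PAP9 in 3 of 5 pairs, and the other members in 4 or 5. With spike scaling and the replicate block all 10 passed, beside 59.0% of genes. Relative to the typical gene PAP2, PAP6 and PAP10 rose, 3 of 10 beside 26.2% of genes, and the block added PAP3 and PAP5 there, beside 29.0%. The spike-scaled call of PAP7 (1.501) was lost without D replicate 1 (1.26) or 2 (1.31) and without 24h replicate 4 (1.26). PAP1 (1.07) passed without D replicate 4 (1.43), PAP4 (1.14) without D replicate 4 (1.66) or 5 (1.42), and PAP9 (1.36) without D replicate 4 (1.70) or 5 (1.56) and without 24h replicate 1 (1.56) or 3 (1.54), and in 5 fits without a library of another group. Under TMM scaling PAP3 (0.80) passed without D replicate 4 (0.99) or 5 (0.95) or 24h replicate 2 (0.91) or 3 (0.90), or 1h or L replicate 4 (0.80 each), PAP5 (0.61) without D replicate 4 or 5 (0.78 each) and PAP8 (0.39) without 24h replicate 4 (0.48), 6h replicate 1 or L replicate 5 (0.39 each). Replicates 1 and 2 gave 10 calls (median 2.99) beside 62.4% of genes, and replicates 3 to 5 gave 2, PAP6 and PAP10 (median 1.26), beside 28.0%. Under TMM scaling the sets gave 7 and 2 calls, beside 23.8% and 21.6%.

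In L 8 members were higher than in D with spike scaling, all but PAP3 and PAP4, where 84.9% of all genes were called higher, and none of them with TMM scaling. The members' median was 1.49 beside 2.35 for all genes, and 9 of the 10 lay below that median, PAP10 (2.49) being the exception. Under TMM scaling 0 members were called higher by edgeR, also at an unadjusted p under 0.05, where 26.9% of genes were called higher. DESeq2 with median-ratio size factors called 0 members higher, beside 29.5% of genes. With TMM scaling and edgeR PAP1, PAP3, PAP4, PAP5, PAP7 and PAP8 were lower in L, 6 of 10 where 30.4% of genes were called lower. Without L replicate 4, 5 spike-scaled calls remained, and 8 members were lower under TMM scaling. The shares of all genes called without that library are not given here. The spike-scaled calls lost without L replicate 4 were those of PAP1 (1.18, without it 0.76), PAP5 (1.22, without it 0.88) and PAP9 (1.39, without it 0.43). These 3 calls were also lost without D replicate 1 (0.92, 0.96 and 1.14, in that order), 2 (0.97, 0.99 and 1.25) or 3 (1.14, 1.14 and 1.33), and that of PAP1, whose adjusted p was 0.0495, without L replicate 2 (1.24) or 5 (1.21) and in 7 fits without a library of another group. PAP3 (1.15) and PAP4 (1.14) passed without L replicate 3 (1.32 and 1.25), D replicate 4 (1.56 and 1.66) or D replicate 5 (1.42 each), and PAP4 without L replicate 5 (1.32). Under TMM scaling PAP7 (-0.69) was lost without L replicate 1 (-0.60), 2 (-0.59) or 5 (-0.61) or D replicate 4 or 5 (-0.56 each), PAP6 (-0.26) was gained without L replicate 4 (-0.75), and PAP9 (-0.93) without L replicate 4 (-1.71) or D replicate 1 (-1.07). With spike scaling replicates 1 and 2 gave 10 calls beside 88.8% of genes and replicates 3 to 5 gave 4 beside 63.8%. With TMM scaling the sets gave 6 and 3 lower members, beside 29.2% and 22.2%.

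**Figure D3:**
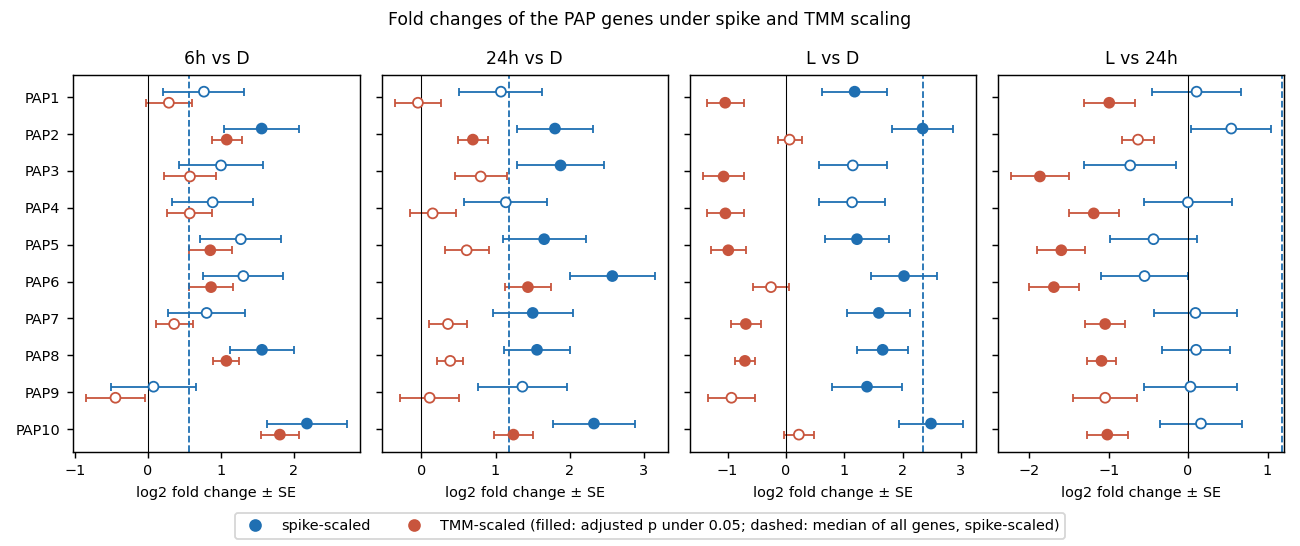
log2 fold change ± SE (horizontal axis) of each member (rows) for 6h, 24h and L against D and for L against 24h, with spike scaling in blue and TMM scaling in red. Filled points passed an adjusted p under 0.05 and the dashed line is the median of all genes with spike scaling, to whose left all 10 members lie in L against 24h.

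Neighbouring groups were compared next. At 6h against 1h, PAP6 and PAP10 rose, 2 of 10 where 13.6% of all genes did, and with the replicate block so did PAP2, PAP3, PAP5 and PAP8, 6 of 10 beside 24.0%. TMM scaling gave PAP2, PAP5, PAP6, PAP8 and PAP10 as higher, 5 of 10 beside 22.1%, and the block added PAP3 and PAP7, beside 25.9%. The call of PAP6 (1.59) was lost without 1h replicate 1 (1.37), 3 (1.38) or 5 (1.497) and without 6h replicate 1 (1.62), 2 (1.57), 4 (1.44) or 5 (1.48), and without D replicate 3 or 24h replicate 2 (1.59 each). PAP5 (1.25) passed without 1h replicate 4 (1.64), and PAP8 (1.1955) without 1h replicate 2 (1.47) or 4 (1.35), 6h replicate 3 (1.38), D replicate 1 or 2 or L replicate 3 (1.1955 each). Under TMM scaling PAP5 (0.77) was lost without 1h replicate 1 (0.64), 2 (0.74) or 3 (0.68) and without 6h replicate 2 (0.78), 4 (0.68) or 5 (0.69). Within replicates 1 and 2 there were 0 spike-scaled calls by edgeR (median 0.94, with PAP10 at an unadjusted p under 0.05), beside 3.11% of genes. Within replicates 3 to 5 there was 1, PAP10 (median 1.12), beside 11.0%. With TMM scaling the sets gave 8 and 1, beside 20.3% and 14.8%.

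At 24h against 6h 0 members passed by edgeR with spike scaling, where 6.82% of all genes were higher and 0.412% lower. PAP6 and PAP9 had an unadjusted p under 0.05. DESeq2 on the Drosophila scale called 0, beside 12.3% of genes higher and 0.587% lower. The block gave 1, PAP6 (1.22 ± 0.41 SE, adjusted p = 0.0376) beside 18.7%. Relative to the typical gene 1 member was lower at 24h, PAP8 (-0.69 ± 0.18 SE, adjusted p = 0.0087), where 8.04% of genes were, and the block added PAP10 (-0.61 ± 0.20 SE, adjusted p = 0.0348), which also passed without 24h replicate 5 (-0.76), beside 12.2%. Each set of replicates alone gave 0 calls by edgeR on both scales, and PAP6 and PAP9 had an unadjusted p under 0.05 with spike scaling in replicates 3 to 5. With TMM scaling PAP8 and PAP10 were lower at an unadjusted p under 0.05 in replicates 1 and 2, and PAP8 in replicates 3 to 5.

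At L against 24h 0 members passed on the spike scale by edgeR and 0 had an unadjusted p under 0.05, while 52.5% of all genes were called higher and 0.514% lower. DESeq2 on the Drosophila scale called 0 members, beside 59.8% of genes higher and 0.456% lower. The members' log2 fold changes lay between -0.73 (PAP3) and 0.54 (PAP2), with a median of 0.06 beside 1.18 for all genes, and all 10 lay below that median. Without L replicate 4 the members' median was -0.31, PAP3 had -1.24, PAP6 -1.16 and PAP9 -0.93, and 0 passed by edgeR. With TMM scaling 8 members were lower in L, all but PAP2 and PAP9, where 5.13% of genes were called lower. Every member was lower in L in 5 of 5 pairs of like number on that scale, although same-numbered libraries of L and 24h were not taken as pairs. The same was not counted for all genes. The call of PAP1 (-0.99, adjusted p = 0.0488) was lost in 17 of the 25 fits that leave out a library, and that of PAP4 (-1.19) without 24h replicate 5 (-1.003). PAP9 (-1.04) passed without L replicate 4 (-1.82), and PAP2 (-0.63, adjusted p = 0.0504) in 7 fits that leave out a library of another group. The fits without libraries of L or 24h in which PAP1 was lost gave -1.08 to -0.81. Replicates 1 and 2 gave 9 TMM-scaled calls (median -1.47) beside 8.72% of genes. Replicates 3 to 5 gave 0 by edgeR (median -0.97), beside 0.252% of genes called lower at an adjusted p under 0.05. There 9 members had an unadjusted p under 0.05, for which the share of all genes is not given here.

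PAP6 and its partner PAP10 had the largest spike-scaled increases at 24h. PAP10, thioredoxin z, had 4.23, 5.64, 13.4, 33.6 and 26.7 spike-scaled CPM in D, 6.66, 28.8, 8.80, 37.6 and 15.1 at 1h, 85.9, 70.1, 30.2, 96.3 and 96.5 at 6h, 47.3, 79.2, 49.3, 115 and 128 at 24h, with 93.7, 110, 44.5, 151 and 70.4 in L, for replicates 1 to 5. The libraries of 6h overlapped those of D by 6h replicate 3, and those of 24h and of L did not overlap D. Its log2 fold change was 2.18 ± 0.54 at 6h (SE; adjusted p = 0.00292), 2.33 ± 0.55 at 24h (adjusted p = 0.000751) and 2.49 ± 0.55 in L (adjusted p = 0.000128), each against D. These are 4.54-fold, 5.02-fold and 5.61-fold. Under TMM scaling the levels at 6h were 114, 74.4, 76.2, 79.5 and 89.1, against 16.9, 17.9, 20.8, 36.3 and 31.6 in D, with no overlap, and the log2 fold change was 1.81 ± 0.26 (adjusted p = 3.99e-06). On that scale it was 1.24 ± 0.26 at 24h (adjusted p = 0.000279), and in L it was 0.22 ± 0.25 and did not pass (adjusted p = 0.472).

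PAP6 had 3.23, 5.38, 9.80, 25.3 and 18.5 spike-scaled CPM in D, 3.75, 19.1, 3.88, 17.0 and 7.68 at 1h, 28.1, 32.1, 11.4, 42.8 and 39.6 at 6h, 41.9, 66.1, 41.2, 114 and 107 at 24h, with 37.8, 39.6, 26.5, 121 and 28.5 in L. All 5 libraries of 24h and all 5 of L lay above the highest of D, and in L replicate 4 stood far above the other L libraries. The log2 fold change was 1.31 ± 0.55 at 6h (SE; adjusted p = 0.0736, with the replicate block 0.00882), 2.57 ± 0.57 at 24h (adjusted p = 0.000422) and 2.03 ± 0.56 in L (adjusted p = 0.00138, with -0.26 under TMM scaling). Relative to the typical gene it rose at 6h by 0.87 ± 0.31 (adjusted p = 0.0203) and at 24h by 1.44 ± 0.31 (adjusted p = 0.000398), and it was lower in L than at 24h by a log2 value of -1.69 ± 0.31 (adjusted p = 0.00145). FLN2, a fructokinase-like kin of PAP6 whose coding sequence was identical at 58.3% of 1346 aligned bases, had spike-scaled log2 fold changes of 2.29 ± 0.64 at 24h (adjusted p = 0.00367) and 1.79 ± 0.63 in L (adjusted p = 0.00964, with -0.33 under TMM scaling).

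PAP8, the most abundant member per length, had 15.96, 25.1, 44.1, 67.2 and 69.4 spike-scaled CPM in D, 31.3, 97.1, 36.0, 80.0 and 42.0 at 1h, 159, 139, 61.6, 160 and 136 at 6h, 103, 158, 111, 145 and 135 at 24h, with 131, 162, 78.0, 138 and 191 in L. Among the 6h libraries replicate 3 alone lay below the highest of D, and those of 24h and of L did not overlap D. The means were 131 ± 40.5 at 6h, 131 ± 23.0 at 24h, with 140 ± 41.7 in L, against 44.3 ± 24.1 in D. The log2 fold changes were 1.56 ± 0.44 at 6h (SE; adjusted p = 0.00789), 1.56 ± 0.44 at 24h (adjusted p = 0.00389) and 1.66 ± 0.44 in L (adjusted p = 0.000923). Under TMM scaling it had 211, 147, 156, 132 and 126 CPM at 6h, against 63.9, 79.6, 68.1, 72.6 and 82.1 in D, with no overlap. There it rose by 1.08 ± 0.18 at 6h (adjusted p = 2.18e-05), was lower at 24h than at 6h, and in L was lower than in D by -0.70 ± 0.18 (adjusted p = 0.00163).

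PAP5 (HEMERA) had 5.41, 8.02, 19.5, 48.6 and 44.1 spike-scaled CPM in D, 34.7, 60.2, 22.4, 98.8 and 87.4 at 6h, 46.0, 74.2, 50.4, 104 and 120 at 24h, with 54.3, 53.4, 30.5, 108 and 46.5 in L, and it averaged 25.5 ± 17.9 at 1h. Each later group overlapped D. The log2 fold change was 1.27 ± 0.55 at 6h (SE; adjusted p = 0.0845, with the replicate block 0.0124), 1.66 ± 0.56 at 24h (adjusted p = 0.0137) and 1.22 ± 0.55 in L (adjusted p = 0.0401). Relative to the typical gene it was higher at 6h by 0.86 ± 0.30 (adjusted p = 0.0182) and lower in L than in D by -0.99 ± 0.30 (adjusted p = 0.00688).

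Among the 3 members with nucleic-acid-binding folds, PAP2 rose at 6h, PAP3 passed there only with the replicate block, and PAP1 did not pass. PAP2 had 2.87, 4.52, 9.15, 19.95 and 17.9 spike-scaled CPM in D, 6.21, 24.2, 5.05, 26.2 and 12.9 at 1h, 20.1, 34.9, 11.7, 48.8 and 44.7 at 6h, 24.1, 39.9, 28.1, 52.8 and 44.4 at 24h, with 57.8, 79.6, 35.2, 66.8 and 36.5 in L. The libraries of 24h and of L lay above all of D. Its log2 fold change was 1.56 ± 0.51 at 6h (SE; adjusted p = 0.0226), 1.80 ± 0.52 at 24h (adjusted p = 0.00452) and 2.34 ± 0.53 in L (adjusted p = 0.000158). With TMM scaling these were 1.08 ± 0.21 (adjusted p = 0.00012), 0.69 ± 0.21 (adjusted p = 0.00616) and 0.06 ± 0.20 (adjusted p = 0.81), so in L its level relative to the typical gene was not distinguished from D.

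Against D with spike scaling, PAP1 passed in L and PAP3 at 24h, and with the replicate block PAP1 also passed at 24h (1.18 ± 0.39 SE, adjusted p = 0.00961) and PAP3 at 6h (1.12 ± 0.42 SE, adjusted p = 0.0348). With TMM scaling the block gave -0.02 for PAP1 at 24h (adjusted p = 0.934) and 0.66 for PAP3 at 6h (adjusted p = 0.00966). PAP1 averaged 20.4 ± 15.1 spike-scaled CPM in D, 19.2 ± 12.7 at 1h, 34.7 ± 21.5 at 6h, 42.8 ± 21.5 at 24h, with 46.1 ± 26.8 in L, and its libraries in L, 32.3, 38.0, 24.9, 92.6 and 42.6, overlapped those of D, 4.396, 7.77, 17.8, 38.2 and 33.6. Its log2 fold change in L was 1.18 ± 0.56 (SE; adjusted p = 0.0495), and under TMM scaling it was -1.04 ± 0.32 (adjusted p = 0.00781). PAP3 had 33.8, 49.6, 37.9, 103 and 113 spike-scaled CPM at 24h, against 3.91, 5.99, 14.006, 36.9 and 31.2 in D. Here 24h replicate 1 alone lay below the highest D library. It rose at 24h by 1.88 ± 0.59 (adjusted p = 0.00864), and it averaged 18.1 ± 13.3 at 1h, 36.8 ± 19.5 at 6h and 40.7 ± 27.8 in L. Relative to the typical gene PAP3 was lower in L than at 24h by -1.87 ± 0.36 (adjusted p = 0.00222), the largest such value among the members, with 9.001, 7.83, 12.0, 25.4 and 9.33 TMM-scaled CPM in L, against 39.0, 31.7, 32.3, 51.1 and 77.6 at 24h and no overlap.

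The dismutases of the set are PAP9 and PAP4. PAP9 (FSD2) had 7.16, 17.7, 25.2, 55.8 and 46.1 spike-scaled CPM in D, 8.75, 61.9, 13.7, 31.0 and 19.6 at 1h, 24.8, 35.3, 10.8, 52.1 and 37.1 at 6h, 31.6, 62.8, 37.0, 148 and 112 at 24h, with 36.6, 50.7, 42.5, 235 and 34.3 in L. At 6h it had the smallest spike-scaled log2 fold change of the members, 0.08 ± 0.59 (SE; adjusted p = 0.937), with -0.45 ± 0.40 under TMM scaling (adjusted p = 0.363), and on the spike scale it was higher than D in 2 of 5 pairs. At 24h the value was 1.36 ± 0.60 (adjusted p = 0.0526, with the replicate block 0.00998). The call in L (1.39 ± 0.60, adjusted p = 0.0307) rested on L replicate 4, without which the mean in L was 41.0 ± 7.34 (SD, n = 4) and the log2 fold change 0.43 ± 0.56 (adjusted p = 0.467 by edgeR). With TMM scaling it was -1.71 ± 0.32 without that library (adjusted p = 8.66e-05) and -0.93 ± 0.40 with it (adjusted p = 0.0521).

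PAP4 (FSD3) had 2.77, 5.36, 9.80, 37.2 and 28.9 spike-scaled CPM in D, 26.4, 37.4, 12.3, 41.0 and 38.2 at 6h, 21.8, 39.3, 23.7, 43.4 and 56.6 at 24h, with 47.9, 54.8, 24.5, 40.2 and 17.0 in L, and it averaged 17.96 ± 13.4 at 1h. Its log2 fold changes were 0.89 ± 0.56 at 6h (SE; adjusted p = 0.24), 1.14 ± 0.56 at 24h (adjusted p = 0.0821, with the replicate block 0.0166) and 1.14 ± 0.56 in L (adjusted p = 0.0583), and PAP4 was the 1 member not called in any of the 7 comparisons with spike scaling and no block. In L it was lower relative to the typical gene than in D (-1.04 ± 0.31, adjusted p = 0.00701) and than at 24h (-1.19 ± 0.32, adjusted p = 0.0173). FSD1 rose in L against D by 4.11 ± 0.57 (adjusted p = 1.45e-07) and also relative to the typical gene (1.65, adjusted p = 2.34e-05), and at 24h by 2.23 ± 0.52 (adjusted p = 0.000751) and 0.98 (adjusted p = 0.00423).

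PAP7, the SET-domain member, had 8.68, 14.1, 25.04, 62.6 and 57.3 spike-scaled CPM in D, 55.4, 61.7, 19.9, 82.3 and 73.6 at 6h, 50.1, 83.6, 55.8, 153 and 132 at 24h, with 88.0, 96.8, 51.9, 201 and 68.4 in L, and it averaged 31.2 ± 20.1 at 1h. It was higher at 24h than in D by a log2 value of 1.501 ± 0.54 (SE; adjusted p = 0.0191) and in L by 1.59 ± 0.54 (adjusted p = 0.00696). With TMM scaling the value at 24h was 0.36 ± 0.25 (adjusted p = 0.237) and that in L was -0.69 ± 0.25 (adjusted p = 0.0244).

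The make-up of the set also differed between groups. Each member's counts per kb of its longest transcript were taken as a share of the sum over the 10 genes, a value that no library scaling alters. PAP8 had the largest mean share in every group, 23.8% ± 4.99 in D, 28.1% ± 6.04 at 1h, 27.2% ± 4.71 at 6h, 21.0% ± 6.00 at 24h, with 23.0% ± 8.58 in L. PAP8 was above PAP10, the next in order, in 3 of 5 libraries at 24h and in 2 of 5 in L, so their order was not settled in these groups. PAP2 had the smallest mean share in D, at 1h, 6h and 24h (2.33% ± 0.0857, 2.95% ± 0.465, 2.81% ± 0.571 and 2.60% ± 0.329), and PAP1 had it in L (3.39% ± 0.610). At 24h PAP1 lay above PAP2 in only 3 of 5 libraries.

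PAP10 took a larger and PAP9 a smaller part of the set at 6h than in D. The share of PAP10 was 27.9%, 21.4%, 23.9%, 21.9% and 24.5% at 6h, against 12.2%, 9.499%, 12.3%, 13.5% and 12.3% in D, and was higher at 6h in 5 of 5 pairs with no overlap. That of PAP9 was 6.05%, 8.13%, 6.46%, 8.91% and 7.10% at 6h, against 15.6%, 22.5%, 17.3%, 16.8% and 15.9% in D, and was lower at 6h in 5 of 5 pairs with no overlap. At 24h and in L the share of PAP10 also lay above all of D, at 17.9% to 21.1% and 19.5% to 24.97%, against 9.499% to 13.5%. That of PAP9 was 9.44% to 17.8% at 24h and 7.34% to 23.4% in L, where replicate 4 lay above every D library, and both groups overlapped D. The ratio of PAP10 to PAP9 per length averaged 0.698 ± 0.157 in D, 1.02 ± 0.365 at 1h, 3.37 ± 0.868 at 6h, 1.60 ± 0.356 at 24h, with 2.25 ± 1.08 in L. At 1h it ran from 0.618 to 1.61 and overlapped D, where it ran from 0.423 to 0.800. The share of PAP6 was 8.53% to 10.4% at 24h, against 4.84% to 5.77% in D, again without overlap. PAP1 and PAP7 had smaller shares at 6h than in D in 5 of 5 pairs. Their levels were nonetheless higher at 6h, in 5 of 5 pairs with TMM scaling and in 4 of 5 with spike scaling. A share falls wherever other members rise more.

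In D the order of the mean shares was PAP8, PAP9, PAP7, PAP10, PAP4, PAP5, PAP6, PAP3, PAP1 and PAP2. PAP7 and PAP10, PAP4 and PAP5, PAP6 and PAP3, and PAP3 and PAP1 were neighbours whose order held in at most 3 of 5 libraries. In L the order was PAP8, PAP10, PAP9, PAP7, PAP4, PAP5, PAP6, PAP2, PAP3 and PAP1, and PAP8 and PAP10, PAP9 and PAP7, PAP4 and PAP5, PAP5 and PAP6, and PAP2 and PAP3 held in at most 3 of 5.

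**Figure D4:**
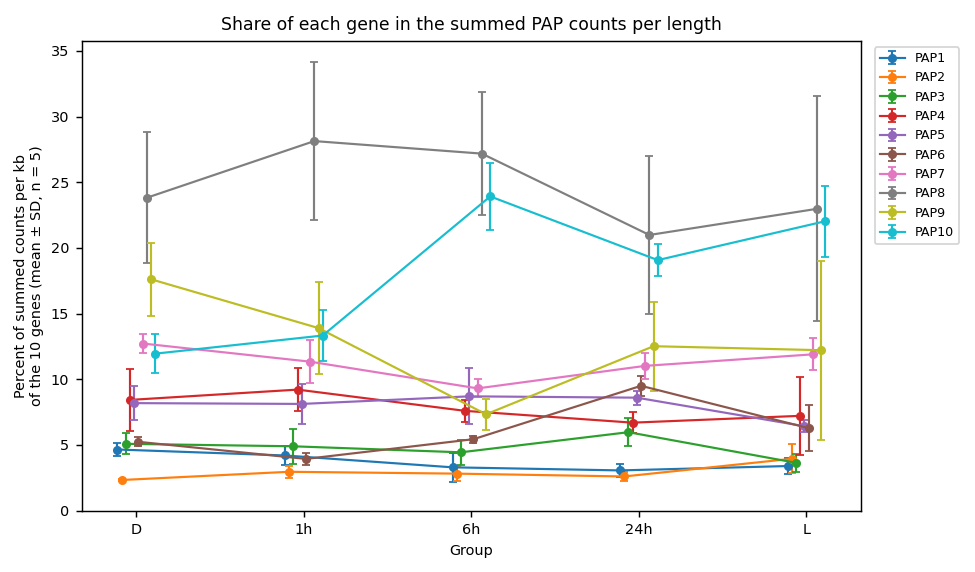
Share of each member in the summed counts per kb of the 10 genes (vertical axis, percent) by group. Points are means and bars ± SD (n = 5), shifted sideways for legibility. PAP10 averages 23.9% at 6h and 11.9% in D, and PAP9 averages 7.33% at 6h and 17.6% in D.

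Other proteins of plastid transcription were set beside the members. Of 16 further genes for PEP-bound or nucleoid proteins (among them PAP11, PAP12, PRIN2, the WHIRLY proteins WHY1 and WHY3 and the CSP41 RNA-binding proteins), 12 rose at 6h and 16 both at 24h and in L, each against D, beside 21.4%, 50.3% and 84.9% of all genes. The list's medians were 1.72, 2.25 and 2.52, beside 0.56, 1.19 and 2.35 for all genes, and with the replicate block 15 rose at 6h, beside 28.2%. With TMM scaling 15 rose at 6h and 14 at 24h, beside 26.5% and 26.2%, and in L 6 rose and 2 fell, beside 26.9% and 30.4%, PTAC17 and PTAC18, which are named after their values were seen. The largest increases were those of CSP41B (5.03 ± 0.64 SE at 24h and 6.18 ± 0.67 in L), CSP41A (3.74 ± 0.54 and 4.74 ± 0.56) and PTAC16 (3.43 ± 0.52 and 4.496 ± 0.55). In L against 24h 0 of the 16 passed with spike scaling by edgeR, beside 52.5% of all genes called higher, and 3 had an unadjusted p under 0.05. By DESeq2 on the Drosophila scale 3 were higher, beside 59.8% of genes. With TMM scaling 9 were lower beside 5.13%, as were 8 of the 10 PAPs.

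Of the 8 sigma factors and phage-type polymerases, 4 rose at 6h and 8 both at 24h and in L, beside the same 21.4%, 50.3% and 84.9% of all genes, with medians of 1.28, 2.02 and 3.19. The block gave 6 at 6h, beside 28.2%. With TMM scaling 7, 6 and 5 rose, beside 26.5%, 26.2% and 26.9%. In L against 24h 5 of the 8 were higher with spike scaling, beside 52.5%. With TMM scaling 0 passed by edgeR, beside 5.19% of genes higher and 5.13% lower, and 1 had an unadjusted p under 0.05. By DESeq2 with median-ratio size factors 1 was higher, beside 8.05% of genes. No test compared the lists. SIG5, a sigma factor, had the largest values, 6.15 ± 0.58 at 24h and 7.80 ± 0.63 in L (SE; adjusted p = 3.51e-10 and 3.56e-12), and was already higher at 1h (6.50 ± 0.59). It was followed in L by SIG1 (4.05 ± 0.56) and SIG3 (3.71 ± 0.52) and at 24h by SIG2 (2.53 ± 0.52) and SIG1 (2.49 ± 0.53). Of the 4 core subunit genes of the plastid itself 0 passed at 6h or 24h by edgeR, beside 21.4% and 50.3% of all genes called higher. There 0 and 2 had an unadjusted p under 0.05. By DESeq2 on the Drosophila scale 0 and 2 were higher, beside 24.9% and 53.7% of genes. With the block rpoB (1.30), rpoC1 (1.34) and rpoC2 (1.23) were higher at 24h with spike scaling, 3 of 4 beside 59.0%. With the block and TMM scaling rpoA (-0.79) and rpoB (-0.95) were lower at 6h, beside 29.4%, and rpoA (-0.65) at 24h, beside 31.8%. In L 2 of the 4 passed, beside 84.9%, rpoC1 (1.76 ± 0.62, adjusted p = 0.00914) and rpoB (1.33 ± 0.60, adjusted p = 0.0402), with spike scaling, and none without the block with TMM scaling. Of these, rpoA and rpoC2 are named after their values were seen. Of the 5 other dismutase genes 4 rose at 24h, led by CSD2 (2.89 ± 0.63), and 4 in L, led by FSD1 and MSD1 (2.85 ± 0.50), beside 50.3% and 84.9% of all genes. With TMM scaling 2 rose and 1 fell at 24h, beside 26.2% and 28.9%, and 2 rose and 2 fell in L, beside 26.9% and 30.4%. At 6h 0 of the 5 passed with spike scaling by edgeR or by DESeq2 on the Drosophila scale, beside 21.4% and 24.9% of genes called higher. None had an unadjusted p under 0.05 there, while 1 fell with TMM scaling, beside 26.3%. All comparisons with D share the same D libraries.

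**Figure D5:**
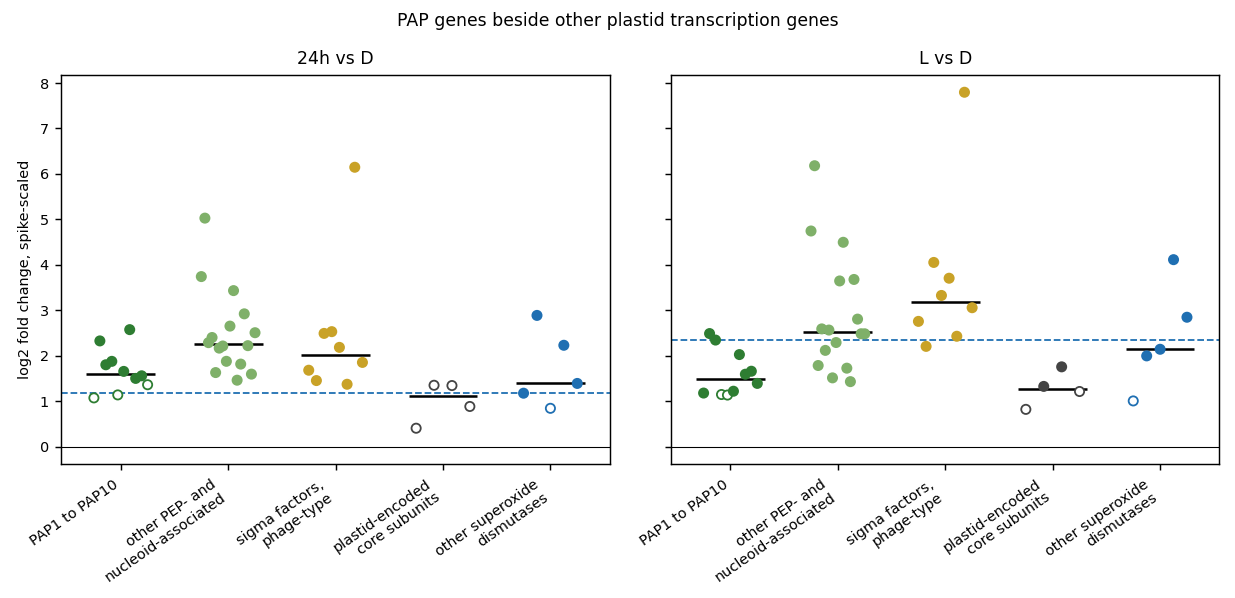
Spike-scaled log2 fold change (vertical axis) of the genes of each list at 24h against D and in L against D. Each point is a gene, filled where its adjusted p was under 0.05, the bar is the list's median and the dashed line the median of all genes. The PAP median is 1.61 at 24h, above the dashed line at 1.19, and 1.49 in L, below the dashed line at 2.35.

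The genes whose course over the 5 groups was most like the mean of the members were found by the root mean square difference of centred log2 group means, over 25 libraries and 14195 candidates. The 6 nearest were EMB25 (AT1G70070, 0.043), AT1G17850 (0.117), PTAC18 (AT2G32180, 0.123), F8H (AT5G22940, 0.140), SCA3, the phage-type polymerase RPOTP of the plastid (AT2G24120, 0.153), and AT5G57700 (0.157). EMB25 averaged 14.9 spike-scaled CPM in D, 15.2 at 1h, 33.2 at 6h, 55.5 at 24h, with 53.1 in L. The median over all candidates was 0.661. The members' own distances from their mean ran from 0.126 (PAP7) and 0.146 (PAP5) to 0.379 (PAP9), 0.398 (PAP6) and 0.426 (PAP10), so the partners PAP6 and PAP10 and the dismutase PAP9 were the least typical of the set.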

How the data were processed

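Per the labels, stranded paired-end libraries were sequenced on DNB-seq. The deposited values are counts per gene in 1 table of Arabidopsis and Drosophila genes. Salmon 1.9.0, HTSeq, R 4.3.2 and TAIR10 appear in the submitters' processing notes with no roles, so the counts may be rounded Salmon estimates. Annotation, strand setting and earlier filters were not stated there. Of the 53986 entries of the table, 1539 carry no gene identifier, made up 0.119% to 0.741% of the counts per library and were dropped.

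Libraries were scaled by their Drosophila sum. Genes kept by filterByExpr (minimum count 10, minimum total 15) entered edgeR 4.0.16 under R 4.3.3 (functions glmQLFit and glmQLFTest, 1 fit of 25 libraries, group only). This left 20615 genes, with prior degrees of freedom of 16.3 and a common biological coefficient of variation of 0.565, and calls were made where the Benjamini-Hochberg p was under 0.05. There were 7 comparisons. The test was tried on simulated data for L against D, with 50 changed genes at each size of change. It called 6% of 2-fold, 58% of 4-fold and 100% of 8-fold changes. Most of the 20615 genes were unchanged in the simulation, while 84.9% were called higher in L against D in the data. The adjustment of p-values differs between these cases, so the rates do not give the power of the real tests. A member that did not pass may still have changed.

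Alternatives were TMM over Arabidopsis or Drosophila genes, DESeq2 1.42.0, no low-count filter, only the 2 groups compared, a replicate block, a term for the replicate set, each set alone and each library left out. Leaving libraries out, or taking the sets alone, under TMM scaling, and the separate account without L replicate 4, were added after seeing the data. Deviations of same-numbered libraries from their group means correlated at 0.211 to 0.656 in the comparisons among D, 1h, 6h and 24h. For the block these were taken as paired by the labels' replicate numbers, while the main fit ignored pairing. Libraries of unlike number were not compared, so the correlation cannot tell pairing by number from the split between the replicate sets. In the comparisons of L the lowest correlation was 0.031, and L was not taken as paired. No 2 libraries of a group agreed within sampling noise.

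The members, the lists, the replicate sets and the tests were chosen with earlier results of these data known. Named were all members, up to 3 called genes of each list with the largest change at 24h and in L, FSD1 and FLN2 whatever their values, and the 6 genes most like the members' mean course. Sequences and coordinates were read from RefSeq's TAIR10.1 assembly with Biopython 1.88, by gene identifier, and all 10 members matched.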

Additional observations from a re-analysis of the deposited data

Results flagged for a closer look

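In 12 of 100 tests (10 genes, 5 groups, both scales) the highest or lowest library of a group lay far from the others, its gap exceeding 0.71 of the group's range. Chance alone gives about 1 in 20 groups, and neither genes nor scales are independent. L replicate 4 was the highest library in 9 of the 12. In spike-scaled CPM it held PAP1 at 92.6, against 24.9 to 42.6, PAP3 at 89.5, against 20.6 to 33.8, PAP6 at 121, against 26.5 to 39.6 and PAP9 at 235, against 34.3 to 50.7 in the other L libraries. In TMM-scaled CPM it held PAP3 at 25.4, against 7.83 to 12, PAP6 at 34.3, against 9.19 to 15.4, PAP7 at 57.1, against 22.5 to 30.2, PAP9 at 66.6, against 9.81 to 24.8 and PAP10 at 42.8, against 25 to 25.9 in the other L libraries. At 24h, replicate 5 was highest in TMM-scaled CPM for PAP4 at 38.8, against 20.2 to 25.1 and PAP5 at 82.5, against 43 to 53 in the other 24h libraries. At 6h, replicate 3 was lowest in spike-scaled CPM for PAP8 at 61.6, against 136 to 160 in the other 6h libraries. What set these libraries apart was not tested.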

How the results depend on the processing

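The comparisons of L changed with the scaling. Of the members' log2 fold changes with spike scaling, 1681 of 1750 fits without 1 library kept the side of the threshold without turning. So did 624 of 770 other fits, and 40 turned. With TMM scaling it was 1694 of 1750 and 168 of 210, and none of these turned. A value was counted as turned only where its sign changed and the member was called in that fit or in the fit compared. A sign change with no call in either was counted as kept. PAP2 in L against 24h was such a case, at 0.54 with spike scaling and -0.63 with TMM scaling. Those that turned in L against D were -0.96 (PAP1), -0.98 (PAP3), -0.95 (PAP4), -0.90 (PAP5), -0.17 (PAP6), -0.60 (PAP7), -0.63 (PAP8) and -0.85 (PAP9) with DESeq2 and median-ratio size factors, -1.04 (PAP1), -1.07 (PAP3), -1.04 (PAP4), -0.99 (PAP5), -0.26 (PAP6), -0.69 (PAP7), -0.70 (PAP8) and -0.93 (PAP9) with TMM over Arabidopsis genes, and -1.07 (PAP1), -1.06 (PAP3), -0.90 (PAP4), -0.95 (PAP5), -0.31 (PAP6), -0.69 (PAP7), -0.71 (PAP8) and -1.11 (PAP9) with the replicate block and TMM. In L against 24h they were -0.95 (PAP1), -0.59 (PAP2), -1.004 (PAP7), -1.05 (PAP8) and -0.98 (PAP10) with DESeq2, -0.99 (PAP1), -1.05 (PAP7), -1.09 (PAP8) and -1.02 (PAP10) with TMM, and -1.05 (PAP1), -0.62 (PAP2), -1.06 (PAP7), -1.09 (PAP8), -1.21 (PAP9) and -1.02 (PAP10) with the block and TMM, and in 24h against 6h -0.61 (PAP10) with the block and TMM. By construction these scalings set the typical gene to no change; other causes were not tested.

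Counts of members called moved as follows, each with the share of all genes called in the same fit and direction in parentheses, and the cause was not tested. DESeq2 here has median-ratio size factors. At 6h against D the 3 (21.4%) became 5 with DESeq2 (27.9%), TMM (26.5%) or a term for the replicate set (23.8%), 6 with the replicate block (28.2%) or the block with TMM (29.7%), 9 in replicates 1 and 2 (41.1%) and 0 in replicates 3 to 5 (8.43%). At 24h the 7 (50.3%) became 3 with TMM (26.2%) and 2 in replicates 3 to 5 (28.0%). In L against D the 8 higher (84.9%) became 0 with DESeq2 (29.5%), TMM (26.9%) or the block with TMM (29.6%), 5 with TMM over Drosophila genes (79.3%) and 4 in replicates 3 to 5 (63.8%). Lower ones there numbered 6 with DESeq2 (28.6%), 6 with TMM (30.4%) and 7 with the block and TMM (33.5%), against 0 (1.96%). At 6h against 1h the 2 (13.6%) became 5 with DESeq2 (23.3%) or TMM (22.1%), 1 with no low-count filter (8.87%), 6 with the block (24.0%), 7 with the block and TMM (25.9%), 0 in replicates 1 and 2 (3.11%) and 1 in replicates 3 to 5 (11.0%). At 24h against 6h the 0 higher (6.82%) became 2 when only these groups were fitted (15.8%) and 1 with the block (18.7%), and lower ones 1 with DESeq2 (9.03%) or TMM (8.04%) and 2 with the block and TMM (12.2%). In L against 24h lower ones became 9 with DESeq2 (5.99%), 8 with TMM (5.13%) and 10 with the block and TMM (8.74%). At 1h replicates 1 and 2 gave 1 (8.46%). Within TMM scaling, replicates 1 and 2 gave 8 at 6h (23.8%), 7 at 24h (23.8%), 8 at 6h against 1h (20.3%) and 0 lower at 24h against 6h (4.04%). Replicates 3 to 5 gave 3 at 6h (20.3%), 1 at 6h against 1h (14.8%), 0 lower at 24h against 6h (3.59%), 3 lower in L against D (22.2%) and 0 lower in L against 24h (0.252%). The block with TMM gave 5 at 24h (29.0%). For L, whose libraries were not taken as paired, the block gave 10 higher against D (86.4%) and 0 against 24h by edgeR (70.2%).

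Leaving out each library in turn gave 2 to 5 calls at 6h against D, 6 to 10 at 24h, 5 to 10 in L, 1 to 4 at 6h against 1h and 0 to 0 in the other spike-scaled counts. With TMM scaling it gave 3 to 6, 3 to 5, 5 to 8 lower in L, 4 to 5 at 6h against 1h, 1 to 2 lower at 24h against 6h, 6 to 9 lower in L against 24h and 0 to 0 otherwise. The shares of all genes called in these fits are not given here. The 5 libraries of a group spread widely on the spike scale, which limits what can be called there.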
